A study of Mus musculus with 6 samples.

Results

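The region described here is the neighbourhood of Cd2bp2, the gene targeted in this study, on mouse chromosome 7. It holds every exonic part that starts within about 2 Mb of that gene on either side, with the parts of Cd2bp2 itself left out; the first of them starts at position 132461873 and the last ends at 135969981 of the build NCBIM37. An exonic part is a piece of an exon, cut wherever any transcript of the gene has an exon boundary. The rule gave 2094 of the 368092 parts in the deposited tables, in 141 of 36889 gene identifiers, of which 7 join overlapping genes under 1 identifier.

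The series compared polyadenylated RNA of podocytes, the epithelial cells of the kidney's filtration barrier, in 3 libraries labelled wild type (WT1 to WT3) and 3 labelled CD2BP2 knockout (KO1 to KO3), all on a C57BL/6 background. Per the labels, the floxed allele was made in R1/E embryonic stem cells, with the 3′ loxP site after exon 3 of the 7 exons of Cd2bp2, and the selection cassette was removed with a FLPO deleter strain. The treatment text, the same for all 6 libraries, describes bone marrow macrophages of MxCre+ mice 6 to 10 weeks old and their littermates, given 300 μg poly(I:C), while the source is labelled podocytes; the Cre driver of the podocyte libraries, the animals' age and the number of animals per library are not given there. The podocyte marker Nphs1 was high in every library, at 2795 to 3032 CPM in WT and at 1873 to 2233 CPM in KO. CPM are counts scaled to the normalized library size. Each KO library lay below each WT library. The labels do not say that libraries of a group came from separate animals, so p-values measure only how far these libraries spread, which may be technical.

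Cd2bp2 encodes a protein with a GYF domain that binds the U5 particle of the spliceosome. Its neighbourhood is gene-dense. It carries genes for leukocyte integrins (Itgal, Itgam, Itgax, Itgad), which let white blood cells adhere, for histone-modifying enzymes such as Setd1a and Kat8, for a group of zinc finger proteins, and for kidney transport genes such as Slc5a2, the sodium-glucose transporter of the proximal tubule. Genes of such a stretch lie next to one another but belong to different pathways and cell types, so their levels in a tissue sample also depend on which cells the sample holds.

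Cd2bp2 itself stood at 61.0, 61.8 and 60.8 CPM in WT and at 48.4, 47.3 and 51.0 CPM in KO, a log2 fold change of -0.32 (SE 0.05, edgeR quasi-likelihood test, adjusted p = 0.0297). The KO and WT libraries did not overlap, but the call was lost in 5 of 6 refits that left out 1 library. The adjusted p was 0.0457 without KO3, where it held, and up to 0.146 without WT2; on the longest part alone it was 0.0546 (edgeR). Parts 6 to 10, at its 5′ end, held 16.6 ± 0.807% of its counts in WT and 13.6 ± 0.528% in KO (SD, n = 3), with no overlap between the groups (exact two-sided permutation test, p = 0.1, the smallest that 3 against 3 allows). Cd2bp2 RNA, parts of exons 1 to 3 included, was thus present in all 3 KO libraries.

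Of the neighbours, 3 genes between 515 and 603 kb from Cd2bp2, towards lower coordinates, moved most clearly between the groups: Nupr1, Apobr and Sult1a1. Their promoters are printed because these genes carry the gene-level result. Each sequence is the 250 bases before the annotated start site, read 5′ to 3′ along the gene, from RefSeq on GRCm38.p6, another build than that of the counts. Capitals mark matches on either strand to 6 motifs. These were the C/EBP-ATF element TGATGNAA, the E-box CACGTG, the CCAAT box, the GC box GGGCGG, the TATA box TATAAA and the PU.1-type ETS motif GAGGAAGT.
Nupr1 (chr7:126625471-126625720, minus strand): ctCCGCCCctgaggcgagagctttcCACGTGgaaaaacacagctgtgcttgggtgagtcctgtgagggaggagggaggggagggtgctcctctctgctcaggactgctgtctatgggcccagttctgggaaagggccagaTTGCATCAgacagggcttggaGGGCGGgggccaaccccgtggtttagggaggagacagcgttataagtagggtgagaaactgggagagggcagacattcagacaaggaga
Sult1a1 (chr7:126676419-126676668, minus strand): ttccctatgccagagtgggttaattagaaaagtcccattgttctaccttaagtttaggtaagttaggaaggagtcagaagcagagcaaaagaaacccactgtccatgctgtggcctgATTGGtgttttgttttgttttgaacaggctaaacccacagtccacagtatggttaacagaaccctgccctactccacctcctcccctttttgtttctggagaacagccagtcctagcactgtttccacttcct
Apobr (chr7:126584758-126585007, plus strand): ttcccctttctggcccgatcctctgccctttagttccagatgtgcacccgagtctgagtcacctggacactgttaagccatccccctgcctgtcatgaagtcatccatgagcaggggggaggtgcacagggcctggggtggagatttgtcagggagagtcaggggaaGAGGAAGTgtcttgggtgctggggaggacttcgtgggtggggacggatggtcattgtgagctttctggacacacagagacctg
The Nupr1 promoter held 1 match to TGATGNAA, 1 to CACGTG and 2 to GGGCGG. Of the 32851 mouse promoters of the same length in the table, 3.45% held TGATGNAA, 6.02% CACGTG and 32.7% GGGCGG. The Sult1a1 promoter held 1 match to CCAAT, found in 33.8% of all promoters, and the Apobr promoter 1 match to GAGGAAGT, found in 2.44%. None held TATAAA, found in 12.4% of all promoters, and no matches overlapped. A match describes these letters only. The fourth gene past the test, Zfp646, has no entry in the table.

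Gene level was compared between KO and WT for 119 of the 141 identifiers; the other 22 had at most 13 counts in any library, and 4 of them had none. In KO, Nupr1 and Apobr rose and Sult1a1 and Zfp646 fell. That is 4 of 119 genes past an adjusted p of 0.05, or 3.36%, where 3.37% of all 19742 genes tested passed. The 2 rises stand beside 1.62% of all genes called higher in KO, and the 2 falls beside 1.76% called lower. The share called near Cd2bp2 was therefore close to that of the whole table.

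Nupr1, a small chromatin-associated protein induced by cell stress (chr7:133766763-133770524), had 194, 209 and 181 CPM in WT and 313, 277 and 319 CPM in KO. Every KO library lay above every WT library. The mean rose from 195 ± 14.3 to 303 ± 22.9 CPM (SD, n = 3), a log2 fold change of 0.64 (SE 0.08, adjusted p = 0.0239). It was also among the most abundant genes of the region per length, at 102 CPM per kb of exonic parts. Apobr, a macrophage receptor for triglyceride-rich lipoproteins (chr7:133728456-133732626), was far less abundant by that measure, at 1.15 CPM per kb. It had 3.57, 3.15 and 2.90 CPM in WT and 5.31, 5.44 and 5.75 CPM in KO, again without overlap, a log2 fold change of 0.78 (SE 0.12, adjusted p = 0.0328).

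Sult1a1, a cytosolic sulfotransferase that conjugates phenols (chr7:133816379-133819946), had 48.8, 57.4 and 54.1 CPM in WT and 29.8, 34.0 and 27.8 CPM in KO. The groups did not overlap, and the KO mean was 0.572 times the WT mean, a log2 fold change of -0.81 (SE 0.10, adjusted p = 0.0212). Zfp646, a zinc finger gene (chr7:135020310-135029510), had 71.2, 69.5 and 69.2 CPM in WT and 61.4, 59.5 and 61.0 CPM in KO. Its fall was small, -0.21 on the log2 scale (SE 0.04, adjusted p = 0.0497), and its libraries were close together within each group.

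The 4 adjusted p-values ran from 0.0212 to 0.0497, and the calls moved with the libraries. None of the 4 was left without WT1, without WT2 or without KO1, and 2 were left without WT3, KO2 or KO3. Over all genes the count fell likewise, from 666 to 31 without WT2. Nupr1 and Sult1a1 passed in 3 of these 6 refits, Apobr and Zfp646 in none, with log2 fold changes of 0.59 to 0.69 for Nupr1 over its 13 alternatives and -0.90 to -0.75 for Sult1a1 over its 14. DESeq2 called 19 of the genes near Cd2bp2, 10 higher and 9 lower in KO, where it called 14.1% of all 18029 genes with an adjusted p, 7.17% as higher and 6.95% as lower. Counts restricted to parts that overlap no other gene left 2 calls, since Apobr then had an adjusted p of 0.0507 and Zfp646 of 0.0513 (edgeR). Parts 4 and 5 of Apobr overlap Cln3 and part 16 overlaps Il27, and parts of Zfp646 overlap Zfp668 and Prss53, on the opposite strand in each case. The sources used here do not state whether the counts use strand, so reads of the overlapping genes may be included.

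**Figure D1:**
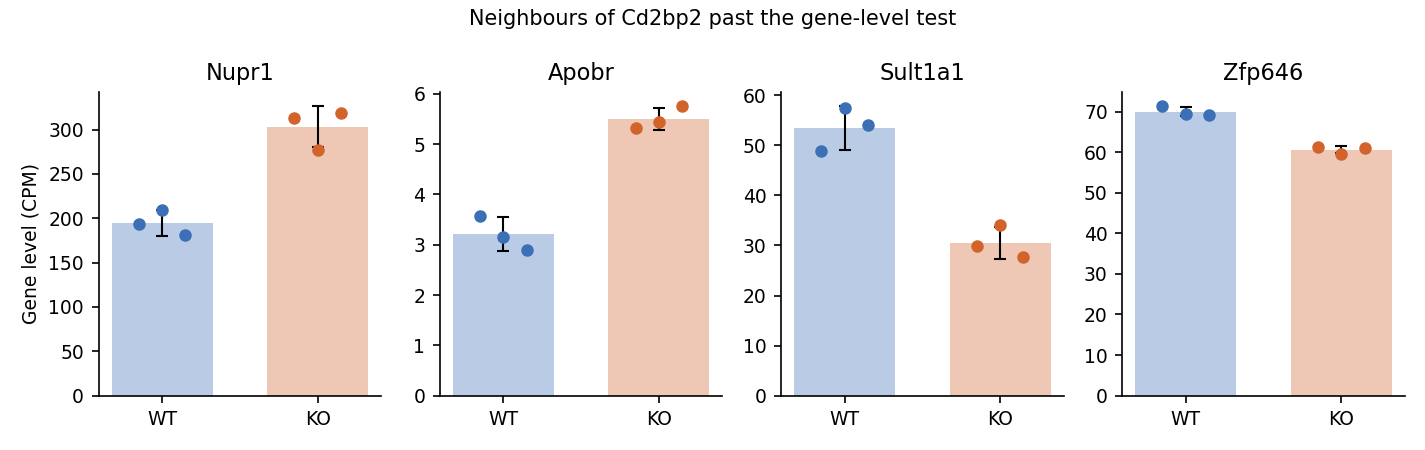
Gene level in CPM of the 4 neighbours of Cd2bp2 past the gene-level test. Points are libraries, bars the mean and lines ± 1 SD of 3 libraries; Nupr1 and Apobr lie higher in every KO library, and Sult1a1 and Zfp646 lie lower.

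By distance, no gene up to 0.5 Mb from Cd2bp2 passed. The counts were 0 of 10 genes up to 0.1 Mb, 0 of 43 over 0.1 to 0.5 Mb, 4 of 44 over 0.5 to 1 Mb and 0 of 22 over 1 to 2 Mb; of the 4, 3 lay at lower and 1 at higher coordinates. In these classes 3, 8, 13 and 5 genes had an unadjusted p under 0.05 (edgeR), beside 22.6% of all genes and 24.4% of the 119. DESeq2 called 2, 5, 9 and 3 genes of these classes, beside 14.1% of all genes, and limma-voom 0, 0, 3 and 0, beside 2.49%. The median log2 fold change was -0.01, -0.06, -0.04 and 0.06 from the nearest to the farthest class. Over the whole region it was -0.03, beside -0.00 for the rest of chromosome 7 and 0.01 for all genes. The median size of the change, sign dropped, was 0.16 near Cd2bp2, 0.16 on the rest of the chromosome and 0.17 over all genes. No tested gene of the region changed 2-fold; the largest log2 fold change in size was 0.87. The CPM ranges of the groups did not overlap for 38 of 119 genes (31.9%), 17 higher and 21 lower in KO, where 28.9% of all genes had ranges that did not overlap.

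**Figure D2:**
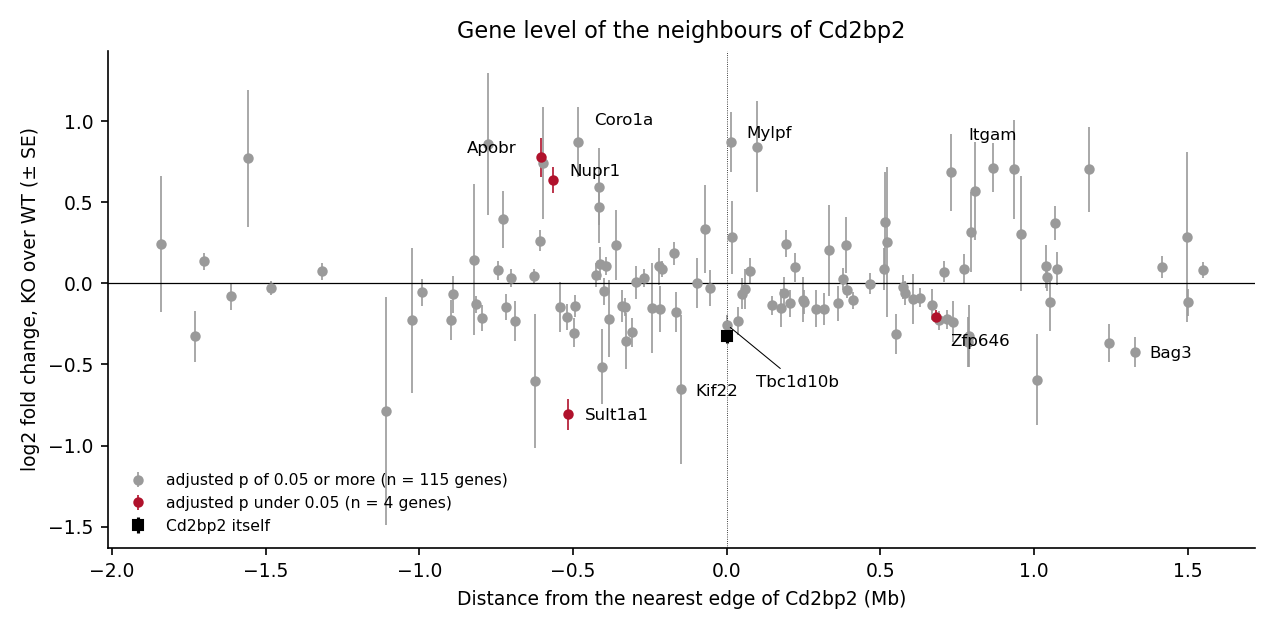
Gene-level log2 fold change (KO over WT, ± SE) of the 119 tested genes against distance from the nearest edge of Cd2bp2, negative towards lower coordinates. The 4 genes past the test, in red, all lie between 0.5 and 1 Mb, and the values scatter around 0 at every distance.

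The nearest neighbours were read gene by gene. Tbc1d10b, a GTPase-activating protein of Rab GTPases, ends 1.46 kb from Cd2bp2 towards higher coordinates; both genes lie on the minus strand, so its 3′ end precedes the start of Cd2bp2. It had 53.4, 53.4 and 54.2 CPM in WT and 45.4, 41.5 and 48.1 CPM in KO. The groups did not overlap, but the log2 fold change of -0.26 (SE 0.06) had an adjusted p of 0.0835. Mylpf, a myosin light chain of fast skeletal muscle 15.6 kb away, was scarce, at 1.95, 1.71 and 1.66 CPM in WT and 3.02, 4.02 and 2.70 CPM in KO. Its log2 fold change of 0.87 (SE 0.18, adjusted p = 0.0600) was, with that of Coro1a, the largest among the genes tested here. The next genes on that side were Sept1, a septin (0.28, adjusted p = 0.512), and the zinc finger genes Zfp553 (-0.23, adjusted p = 0.185) and Zfp771 (-0.06, adjusted p = 0.750). On the lower side the nearest were Spn, the leukocyte sialophorin CD43 (-0.03, adjusted p = 0.903), Qprt, an enzyme of NAD synthesis (0.33, adjusted p = 0.514; 0.09 without KO2 and 0.55 without WT3), and AI467606 (0.00, adjusted p = 0.994). Kif22, a kinesin of mitotic chromosomes, and Maz, a zinc finger transcription factor, followed at log2 fold changes of -0.65 (SE 0.46) and -0.18 (SE 0.12). Kif22 was high in WT3, at 8.96 CPM, against 2.43 to 4.70 CPM in the other 5 libraries, and its log2 fold change without WT3 was -0.065. That of Maz was -0.094 without KO2 and -0.28 without KO3. None of these 10 genes passed the edgeR test; 3 had an unadjusted p under 0.05 and DESeq2 called 2 of them, Mylpf and Tbc1d10b.

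One exonic part beside Cd2bp2 stood apart from its own gene. Part 1 of Tbc1d10b is the 6-base end of its 3′ exon (chr7:134340973-134340978, minus strand), 1459 bases from Cd2bp2. It had 5, 8 and 2 counts in WT and 73, 42 and 45 counts in KO, so every KO library held more than 5 times the highest WT count. Part 2, the 1592 bases just before it in the same exon, had 2937, 2908 and 3818 counts in WT and 3571, 2787 and 3397 counts in KO. Part 1 therefore amounted to 0.170, 0.275 and 0.0524% of part 2 in WT and 2.04, 1.51 and 1.32% in KO. The means were 0.166 ± 0.111% and 1.63 ± 0.374% (SD, n = 3; exact two-sided permutation test, p = 0.1, the smallest possible).

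Relative to the rest of its gene, the use of Tbc1d10b part 1 rose by 2.31 on the log2 scale (diffSpliceDGE in edgeR, adjusted p = 1.28e-07), and its level rose by 3.10 (SE 0.47, adjusted p = 0.0226). The usage call held in all 10 alternatives, with adjusted p from 1.28e-08 to 0.00602, and the level call in 7 of 10. The part passed the filters on low counts only through its KO libraries, the group where it is high. These p-values and alternatives are therefore a description and no independent support for the rise. The other 21 parts of the gene ran from -0.62 to 0.28 in level, 19 of them below 0, and none passed. The part was held by 1 transcript of the annotation the authors used, which the later annotation used for names does not list. Among the 898 genes of the whole table whose 3′-terminal part spans at most 10 bases, follows a part of at least 500 counts in every library and gave a ratio, its share of the next part rose most, 9.80-fold from WT to KO, beside a median of 0.953; the next gene stood at 9.62. A part without a count in any WT library gives no ratio and has no rank here. That comparison was chosen after the value was seen and is a description.

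**Figure D3:**
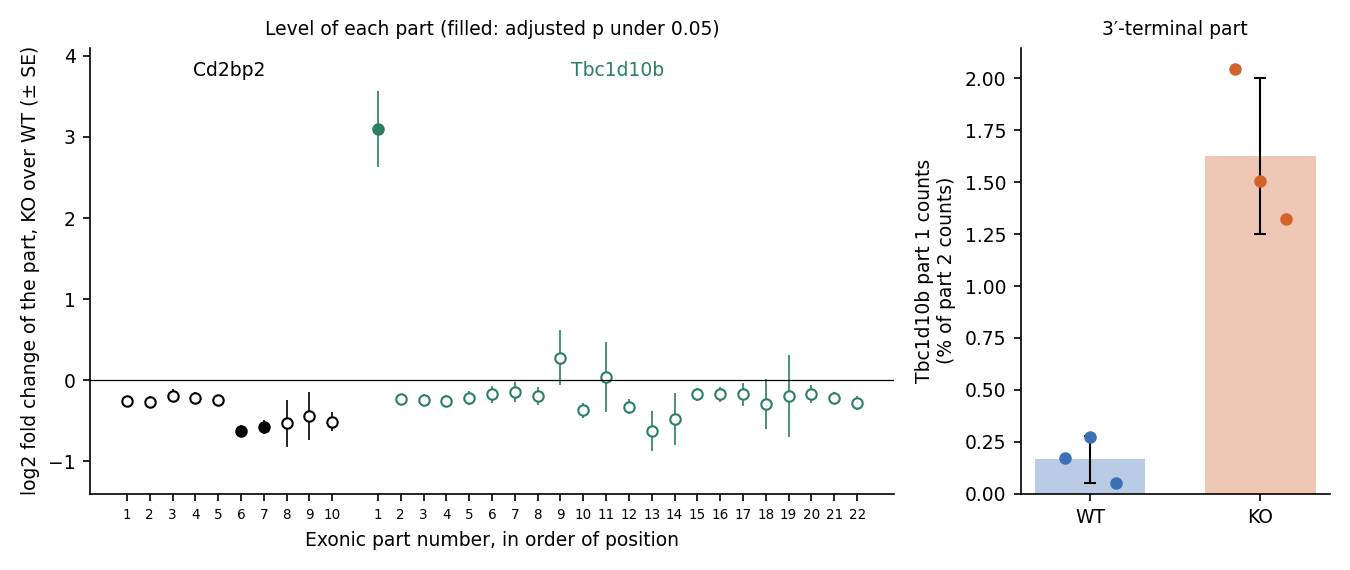
Left, log2 fold change (KO over WT, ± SE) of every exonic part of Cd2bp2 and of its neighbour Tbc1d10b in order of position, both genes being read from right to left. Right, counts of Tbc1d10b part 1 as a percentage of those of part 2, with points for libraries, bars for means and lines for ± 1 SD. Part 1 stands at 3.10 while the other 21 parts of Tbc1d10b lie between -0.62 and 0.28.

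The level of single parts was tested for 1724 of the 2094 parts; 57 parts had no count in any library. In KO 33 parts changed, 19 higher and 14 lower, in 9 identifiers. That is 1.91% of those tested, where 1.71% of all 239688 parts tested passed, 0.912% of them as higher and 0.794% as lower. Parts of 1 gene share reads and are not replicates. By gene, 10 of the parts lay in Sult1a1, 7 in Coro1a, 5 in Nupr1, 4 in the identifier that joins Prrt2, Pagr1b, Mvp and Pagr1a, 3 in Tial1, and 1 each in Apobr, Bag3, Slc5a2 and Tbc1d10b. The count was 9 without KO1, 10 without WT1, 6 without WT2, 15 without WT3 and 19 without KO3 (edgeR).

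Along Sult1a1, parts 2 to 13, towards the 3′ end, held the 10 parts that fell, with log2 fold changes of -1.21 to -0.69. Of all parts of the region, part 2 had the smallest p (chr7:133816384-133816656), with 1386, 1491 and 1815 counts in WT and 1165, 965 and 980 in KO, a fall of 0.84 on the log2 scale (SE 0.07, adjusted p = 0.00236). It passed in all 10 alternatives, but it overlaps Sgf29 on the opposite strand, as part 1 does; part 3, with no such overlap, fell by 0.89 (adjusted p = 0.0126). Part 17, the 57 bases at the 5′ end, had 65, 70 and 93 counts in WT and 86, 103 and 104 in KO, a log2 fold change of 0.13 (adjusted p = 0.779). Part 17 thus made up 0.716 ± 0.0385% of the gene's counts in WT and 1.35 ± 0.225% in KO (SD, n = 3), without overlap. Its usage did not pass the test over all parts (log2 fold change 0.63, adjusted p = 0.959), so a difference between parts of Sult1a1 was not shown.

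In Nupr1 the 5 parts that rose hold most of its counts, with log2 fold changes of 0.64 to 0.70. Part 6 had 6098, 6293 and 6972 counts in WT and 14032, 10762 and 13004 in KO (0.70, SE 0.07, adjusted p = 0.00595) and passed in all 10 alternatives. Part 5, 289 bases that the annotation places in a retained-intron transcript alone, had 1232, 1783 and 1585 counts in WT and 2021, 1333 and 2884 in KO, a log2 fold change of 0.17 (SE 0.24, adjusted p = 0.771). Its counts were 17.4, 24.4 and 19.7% of those of part 4 in WT and 12.4, 10.8 and 19.3% in KO. KO1 and KO2 lay below all WT libraries and KO3 lay among them, and the usage test gave an adjusted p of 0.436.

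Coro1a, an actin-binding protein of leukocytes, missed the gene-level test (log2 fold change 0.87, SE 0.22, adjusted p = 0.0853), with 19.6, 13.9 and 22.9 CPM in WT and 37.2, 26.9 and 39.1 CPM in KO. It passed with DESeq2 (adjusted p = 0.00082), while on its longest part alone the log2 fold change was 0.28 (edgeR, adjusted p = 0.821). Of its 26 tested parts all 26 had log2 fold changes above 0, and 7 rose, by 0.93 to 1.10. Apobr had 13 of 13 tested parts above 0, of which part 5, the long exon, rose by 1.00 (SE 0.11, adjusted p = 0.00789). That part overlaps Cln3 on the opposite strand, and no other part of Apobr passed. Part 7, with no such overlap, had a log2 fold change of 0.92 (edgeR, adjusted p = 0.0610). Tial1, an RNA-binding protein of stress granules, had 33 of 35 parts below 0, and 3 parts at its 3′ end fell, by 0.46 to 0.62. Bag3, a co-chaperone of HSP70, had 1 part that fell, by 0.49, and Slc5a2 had 1 part that rose, by 0.71.

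The joined identifier of Prrt2, Pagr1b, Mvp and Pagr1a as a whole had a log2 fold change of 0.19 (SE 0.07, adjusted p = 0.185). All 18 tested parts held by transcripts of Mvp, the major vault protein, lay above 0, with a median of 0.34, and 4 of them rose. The 23 other parts, of Prrt2 and Pagr1a and their neighbours, all lay below 0, with a median of -0.20, and none passed. Part 10, within Mvp, had 1119, 1065 and 1237 counts in WT and 2023, 1598 and 1792 in KO (0.40, SE 0.07, adjusted p = 0.0349). The split by transcript was made after the values were seen.

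**Figure D4:**
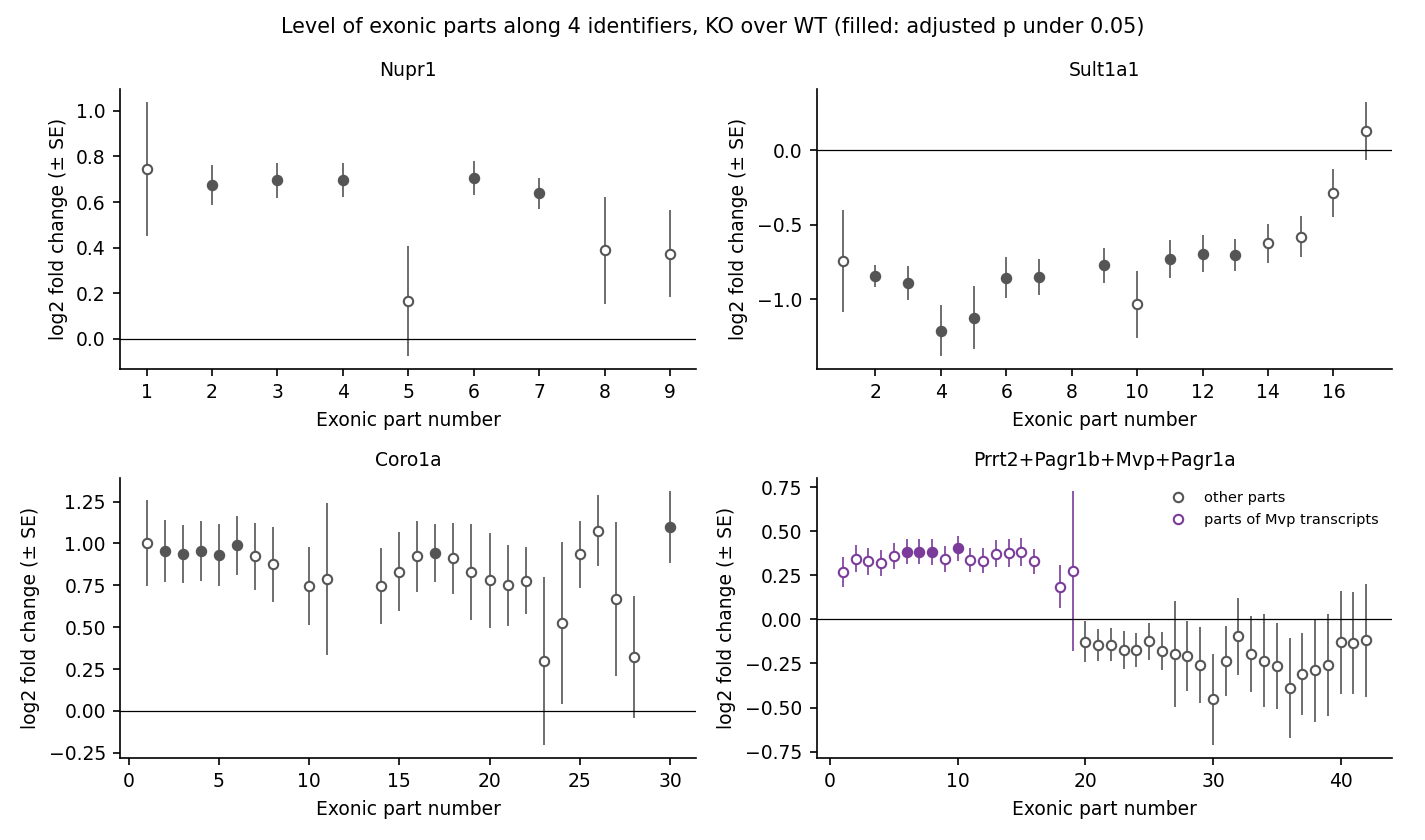
Log2 fold change (KO over WT, ± SE) of the tested exonic parts of Nupr1, Sult1a1, Coro1a and the identifier that joins Prrt2, Pagr1b, Mvp and Pagr1a, by part number; all are read from right to left. Filled points passed the part-level test. Nupr1 part 5 stands at 0.17 below its neighbours, and Sult1a1 part 17 at 0.13 above them. The joined identifier changes sign above its highest-numbered Mvp part.

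Exon usage, the change of a part relative to the rest of its gene, passed for 2 of 1708 parts near Cd2bp2 (0.117%), where 0.061% of all 236061 parts passed. By gene, 2 of 101 passed, where 0.383% of all 15145 genes passed. One was Tbc1d10b part 1, which passed the filter on low counts only through its KO libraries. The other was part 5 of the identifier that joins Slx1b, a subunit of a structure-specific endonuclease, with the pseudogene Gm6939 (chr7:133832982-133833294). It had 5, 12 and 191 counts in WT and 12, 4 and 5 in KO, so only WT3 stood apart. Its usage log2 fold change was -2.21 (adjusted p = 0.000122), and without WT3 it was -0.30 with an adjusted p of 1.00. Parts 5 to 9 together had 13, 19 and 762 counts in WT and 43, 22 and 25 in KO. Without KO3, 6 parts passed, 1 higher and 5 lower.

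Single libraries were also compared over the parts tested for level. WT3 alone had such parts of at least 20 counts that stood 3-fold or more above each other library, 2 in all. These were part 5 of the identifier with Slx1b and part 32 of Tgfb1i1. The latter had 24, 15 and 107 counts in WT and 16, 13 and 19 in KO. Parts 6 to 9 of the identifier with Slx1b were not tested and are not in this count. Apart from Tbc1d10b and Slx1b, the genes with the smallest usage p were Nupr1, the joined identifier with Mvp, and Sult1a1. In the joined identifier the part with the smallest usage p was part 37, with a usage log2 fold change of -0.36 (adjusted p = 0.493). None of these 3 genes passed.

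The role lists were read by their counts, since their members were not drawn independently of earlier results. In the list of 16 leukocyte genes, all tested, 13 had log2 fold changes above 0, with a median of 0.70 beside 0.01 for all genes; 1 rose, Apobr, and 1 fell, Sult1a1, whose known role is sulfation rather than a leukocyte function. These counts stand beside 1.62% of all genes called higher and 1.76% called lower. DESeq2 called 4 of the 16 as higher and 1 as lower, beside 7.17% and 6.95% of all genes. Itgam, the αM integrin of macrophages and neutrophils, had 6.29, 4.96 and 6.18 CPM in WT and 9.72, 8.02 and 10.9 CPM in KO, without overlap (0.71, SE 0.15, adjusted p = 0.0608). Itgal, the αL integrin, had 13.4, 9.67 and 18.1 CPM in WT and 30.1, 17.2 and 26.5 CPM in KO, and the ranges overlapped (0.84, SE 0.28, adjusted p = 0.152). Il4ra, the interleukin 4 receptor chain, was the most abundant of the list at 69.8 CPM and had a log2 fold change of -0.08 (adjusted p = 0.610).

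The leukocyte list near Cd2bp2 summed to 189 to 226 CPM in WT and 195 to 235 CPM in KO, with overlap. Without Sult1a1 it summed to 132 to 172 CPM in WT and 161 to 205 CPM in KO, still with overlap. Summed markers of macrophages and leukocytes encoded elsewhere were higher in every KO library. The 11 markers summed to 109 to 144 CPM in WT and 208 to 238 CPM in KO, 4 of 11 passed the gene-level test as higher and none as lower, beside 1.62% and 1.76% of all genes, and no marker was at 0 in any library. Lyz2, a lysozyme of myeloid cells, had 49.6, 37.3 and 40.6 CPM in WT and 84.2, 86.3 and 97.8 CPM in KO. Spi1, Tyrobp, Ctss, Csf1r and Cd79a were also higher in each KO library than in any WT library. Ptprc, Cd68, C1qa, C1qb and Cd3e overlapped between the groups, Ptprc with 30.1 CPM in WT3 and 29.9 CPM in KO2. The 8 podocyte markers summed to 21837 to 24546 CPM in WT and 19415 to 21201 CPM in KO, and 1 of 8 was called lower and none higher. The part of these markers in the levels of the leukocyte genes near Cd2bp2 was not tested. In bulk samples more cells of a type and more RNA per cell cannot be told apart.

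**Figure D5:**
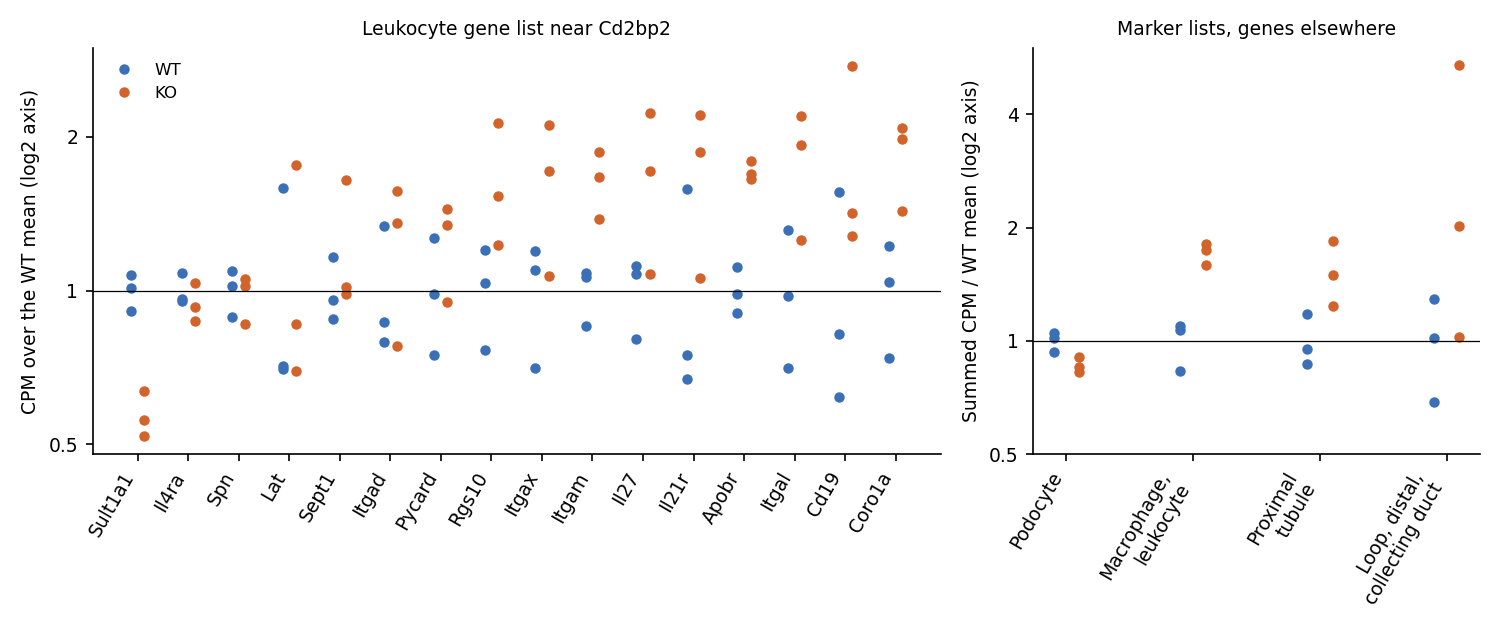
Left, CPM of the 16 genes of the leukocyte list near Cd2bp2 in each library over their WT mean, on a log2 axis, ordered by log2 fold change. Right, summed CPM of marker lists encoded elsewhere over their WT mean. Blue points are WT and orange points KO libraries. In log2 fold change 13 of 16 genes lie above 0, and the sum of the macrophage and leukocyte markers is higher in all 3 KO libraries.

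The counts of the other lists are to be set against 3.37% of all genes past the edgeR test, 22.6% with an unadjusted p under 0.05 and 14.1% called by DESeq2. Of the 4 tested genes of epithelial transport and proteases, none passed with edgeR; 3 had an unadjusted p under 0.05, and DESeq2 called 2 as higher and 1 as lower. Slc5a2 had 25.2, 19.5 and 23.4 CPM in WT and 30.8, 30.1 and 27.3 CPM in KO, without overlap (0.37, SE 0.11, adjusted p = 0.112; 0.16 on its longest part alone). Prss8, the membrane protease prostasin, had 8.47, 7.65 and 11.7 CPM in WT and 14.5, 19.1 and 11.1 CPM in KO (0.69, SE 0.24, adjusted p = 0.164; 0.46 without KO2). The identifier that joins Prss53 with Gm21974 stood lower in each KO library (-0.23, SE 0.06, adjusted p = 0.0864). Proximal tubule markers encoded elsewhere summed to 414 to 564 CPM in WT and 590 to 881 CPM in KO, with 2 of 8 called higher, beside 1.62% of all genes. Loop, distal tubule and collecting duct markers summed to 180 to 338 CPM in WT and 267 to 1419 CPM in KO, with KO2 the highest. KO3 lay within the WT range, and 1 of 8 was called higher. The 5 epithelial transport and protease genes of the region, the untested Zg16 included, summed to 70.6 to 79.7 CPM in WT and 75.3 to 86.8 CPM in KO. No tubule marker was at 0 in any library, and the part of these markers was not tested.

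Among 17 tested chromatin and transcription regulators none passed, while 16 had log2 fold changes below 0, with a median of -0.16. Of these 17 genes 5 had an unadjusted p under 0.05 (edgeR), and DESeq2 called 1, as lower. Of the 119 genes near Cd2bp2, 63 lay below 0, with a median of -0.03. Of all 19742 genes tested, 9697 lay below 0, with a median of 0.01. Kat8, the acetyltransferase of histone H4, had 21.5, 22.3 and 23.5 CPM in WT and 19.2, 18.8 and 19.7 CPM in KO, without overlap (-0.22, SE 0.06, adjusted p = 0.105); on its longest part alone the value was 0.02. Fbxl19, a protein that binds CpG islands, had -0.31 (adjusted p = 0.195), and Nfatc2ip -0.21 (adjusted p = 0.191). Setd1a, a histone H3 lysine 4 methyltransferase joined with Hsd3b7, was the most abundant at 127 CPM (-0.06, adjusted p = 0.687). Of 13 zinc finger genes 10 lay below 0, with a median of -0.10, and 1, Zfp646, fell. In this list 3 genes had an unadjusted p under 0.05 (edgeR), and DESeq2 called 1 as higher and 1 as lower. E430018J23Rik was on the other side of 0 (0.25, adjusted p = 0.15).

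Aldoa, the glycolytic aldolase, had 454, 441 and 432 CPM in WT and 471, 502 and 455 CPM in KO (0.11, SE 0.06, adjusted p = 0.313). Eif3c, a subunit of the translation initiation factor eIF3, had a log2 fold change of 0.04 (SE 0.04, adjusted p = 0.60). None of the 7 RNA binding and translation genes passed with edgeR, and DESeq2 called 1, as lower; Tial1 (-0.37, adjusted p = 0.147) was the 1 with an unadjusted p under 0.05. Among 11 metabolic enzymes none passed with edgeR or DESeq2, and 1 had an unadjusted p under 0.05. Gdpd3, a lysophospholipase D, had 77.1, 73.3 and 39.6 CPM in WT and 99.1, 96.7 and 91.1 CPM in KO, with WT3 lowest (0.60, SE 0.24, adjusted p = 0.205).

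Of 8 kinases, phosphatases and adaptors none passed with edgeR, 1 had an unadjusted p under 0.05, and DESeq2 called 1, as lower. Taok2, a MAP kinase kinase kinase, had 218, 211 and 222 CPM in WT and 171, 157 and 200 CPM in KO (-0.30, SE 0.09, adjusted p = 0.124; -0.68 on its longest part alone), and all 24 of its tested parts lay below 0. Of 16 genes of membrane traffic, cytoskeleton and membrane proteins none passed with edgeR, 4 had an unadjusted p under 0.05, and DESeq2 called 2 as higher and 1 as lower. In that list 8 lay above and 8 below 0, and Cln3, a lysosomal membrane protein, had 0.26 (SE 0.07, adjusted p = 0.0864; 0.096 on its longest part alone). Of the pair of stress genes, Nupr1 rose, while Bag3 had 32.8, 33.8 and 40.7 CPM in WT and 26.0, 27.3 and 26.7 CPM in KO, without overlap (-0.42, SE 0.09, adjusted p = 0.0620). Over the 6 libraries the log2 CPM most like that of Cd2bp2 were those of Zfp646 (Pearson r = 0.98), Tbc1d10b (0.96) and Kat8 (0.94). As Cd2bp2 differs between the groups, these values largely restate the difference between KO and WT and are a description.

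The parts near Cd2bp2 were well covered. Reads were found on 91.2 to 93.5% of them per library, beside 77.4 to 80.2% of all parts. They held 0.492 to 0.505% of all part counts in WT and 0.506 to 0.553% in KO, out of totals of 186022084 to 255554573 per library.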

How the data were processed

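The authors deposited, for each of 6 libraries, raw counts per exonic part beside each part's length, its covered bases and the fraction covered. Per the file headers, the parts come from Ensembl 67 on NCBIM37. TopHat 1.4.1 is named by the submitters' processing notes, as is GRCh37, a human build that goes against those headers. The sources used here do not name a counting tool or a strand setting. Totals were 186022084 to 255554573 counts per library. Part counts were added up within a gene, so a read on several parts counts more than once. Of 134 single identifiers, 125 had a symbol in the reference annotation, used for names only. Tests were fitted on the whole table with edgeR 4.0.16 in R 4.3.3 (TMM, filterByExpr defaults, quasi-likelihood, 3 KO against 3 WT, no covariates; diffSpliceDGE for usage), with Benjamini-Hochberg adjusted p under 0.05 over all features. Tests were tested on simulated data. Permutation tests used SciPy 1.17.1. Alternatives were RLE, other filters, DESeq2 1.42.0, limma-voom 3.58.1, a replicate block, leaving out each library, parts without overlap, the longest part, and the gene total as offset. The region, the lists and the tests were chosen with earlier results of these data known. Named were genes past the test, the 5 nearest on each side, up to 3 per role list with its most abundant, the largest changes, and the parts with the smallest p. Some items are not reported here.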

Additional observations from a re-analysis of the deposited data

How the results depend on the processing

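Near Cd2bp2 the gene-level count of 4 calls was 4 with RLE normalization and with at least 1 CPM in 3 libraries, 3 with limma-voom, with no filter and with the longest part alone, 2 with parts that overlap no other gene, 19 with DESeq2, and 0 to 2 when 1 library was left out. The part-level count of 33 was 28 with limma-voom, 34 with RLE and 6 to 24 when 1 library was left out. The usage count of 2 was 5 with the gene total as offset (1 higher, 4 lower), 1 with limma-voom diffSplice and 1 to 6 when 1 library was left out. With the replicate block, genes called were 2, parts 39 and usage calls 1, and over all genes the block gave 82 calls against 666; of the 4 genes Sult1a1 passed (adjusted p = 0.0414), Nupr1 (0.0814), Apobr (0.101) and Zfp646 (0.121) did not, Coro1a did (0.0401), and Cd2bp2 did not (0.0893). The numbers share no stated source: same-numbered libraries had correlations of their deviations of 0.11, -0.06 and 0.16, and not every library correlated best with its own number. The median log2 fold change was -0.04 within 1 Mb and within 0.5 Mb.

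Changes of sign all concerned genes that passed in no alternative but Kat8, which passed with DESeq2 alone: with 1 library left out Spn ran from -0.108 to 0.045, AI467606 from -0.135 to 0.126, Sept1 from -0.0042 to 0.408 and Zfp771 from -0.112 to 0.0166, and Kat8 had 0.024 on its longest part. The cause was not tested. Scarce parts rest on few reads: Tbc1d10b part 1 had 2 to 73 counts per library.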
